A study of Mus musculus with 6 samples.

Results

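The genes described here are 39 mouse genes of DNA double-strand break repair and the damage signalling that goes with it, chosen by name as members of the known pathway. Each count table held 55414 gene identifiers, and all 39 genes were matched to one by symbol. Of these, 35 had enough counts to be tested, among 13115 genes tested in all. Bard1, Palb2, Rad51b and Rad54l did not pass that filter.

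A break in both strands of DNA is recognised by the MRE11-RAD50-NBS1 complex, which activates the kinase ATM. ATM marks the surrounding chromatin by phosphorylating the histone H2AX, MDC1 binds that mark, and the ubiquitin ligases RNF8 and RNF168 then build the ubiquitin signal that recruits 53BP1 and BRCA1. 53BP1 and its effector RIF1 hold back trimming of the ends and favour non-homologous end joining, in which the Ku heterodimer, the DNA-dependent protein kinase and the XRCC4-ligase IV complex rejoin the ends. CtIP and the BRCA1 and BRCA2 complexes favour homologous recombination, which copies a sister chromatid and is used mainly by dividing cells. TRIP12 is an E3 ubiquitin ligase known to limit the spread of RNF168 and to act on PARP1 at breaks. Rnf168 and Parp1 are not analysed here.

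RNA sequencing was done on 6 preparations of acinar cells from the pancreas of untreated adult mice. Acinar cells make and secrete the digestive enzymes. The 3 control preparations had the genotype Pdx1Cre;Trip12+/+ and the 3 knockout preparations the genotype Pdx1Cre;Trip12fl/fl, so both groups carried the Pdx1-driven Cre recombinase, which acts in the epithelial lineage of the pancreas, and differed in whether Trip12 could be cut by it. Other cells of the organ are not targeted by this Cre. The labels call the 3 preparations of a group biological replicates and give each its own identifier, without saying that each came from a separate animal. The p-values measure the spread between these preparations.

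The libraries held 31019500 to 34041901 gene counts. Trip12 had 29.0, 22.3 and 26.4 CPM (counts scaled to a common library size with TMM factors) in the controls and 14.4, 14.7 and 13.0 CPM in the knockouts. It fell in knockout to 54.1% of the control mean (log2 fold change -0.89, SE 0.14, edgeR-adjusted p 0.0256). When single libraries were left out in turn, it was called without control replicate 1, and its adjusted p was 0.0676 to 0.14 in the other 5 edgeR fits. All 15 acinar markers listed were detected. Their summed level ran from 569200 to 764000 CPM in control and from 463500 to 480900 CPM in knockout. These levels rest on the TMM factors, which ran from 0.785 to 1.02 in control and from 1.12 to 1.19 in knockout. The median log2 fold change of the 15 was -0.50 with TMM factors and -0.07 with scaling by library totals instead. With TMM factors 14 had a negative value and 1, Rbpjl, a positive one (1.24). Xist, which marks female cells, was above 100 counts in control replicates 2 and 3 only, so that 1 control and all 3 knockouts were male by this measure. In a fit with sex as a covariate, the difference between the groups therefore rests on that 1 control against the 3 knockouts.

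No repair gene of the set was called in knockout against control. The quasi-likelihood test of edgeR, with p-values adjusted over all tested genes (Benjamini-Hochberg), called 0 of the 35 and 0.945% of all genes. The smallest adjusted p among the 35 was 0.120, that of Trp53bp1. At an unadjusted p under 0.05 there were 3 repair genes, Trp53bp1, Xrcc3 and Xrcc6, all higher in knockout (8.57% of the 35, against 8.45% of all genes higher and 16.7% in either direction). The other tools run, DESeq2's Wald test and limma-voom, also called none. With the replicate number as a block, 1 of the 35 was called, Trp53bp1, which rose in knockout, where 5.99% of all genes were called and 3.4% were called higher. The same gene was the 1 call without a filter on low counts (3.3% of all genes called) and without control replicate 1 (3.41%). Scaled by library totals instead, 3 of the 35 were called higher, Trp53bp1, Xrcc6 and Uimc1, beside 11.6% of all genes. The median log2 fold change of the 35 was 0.02, as was that of all genes tested, with 19 positive and 16 negative values. The groups did not overlap in 5 of the 35 genes (14.3%), against 22.9% of all genes tested. Trp53bp1, Xrcc6 and Rbbp8 were the 3 higher in knockout (12% of all genes), and Xrcc5 and Nbn the 2 lower (10.9%). Library totals raised the whole scale by 0.41 (log2), and the directions given here are relative to TMM scaling.

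The precision differed between genes with their counts. The 95% interval of the fold change lay within a 2-fold change in either direction for 20 of the 35, all of them among the 26 genes with a mean of at least 1 CPM. For the other 15 a 2-fold change in at least 1 direction lay inside the interval, including all 9 genes under 1 CPM. Standard errors of the log2 fold change ran from 0.13 (Rbbp8) to 1.07 (Polq).

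**Figure D1:**
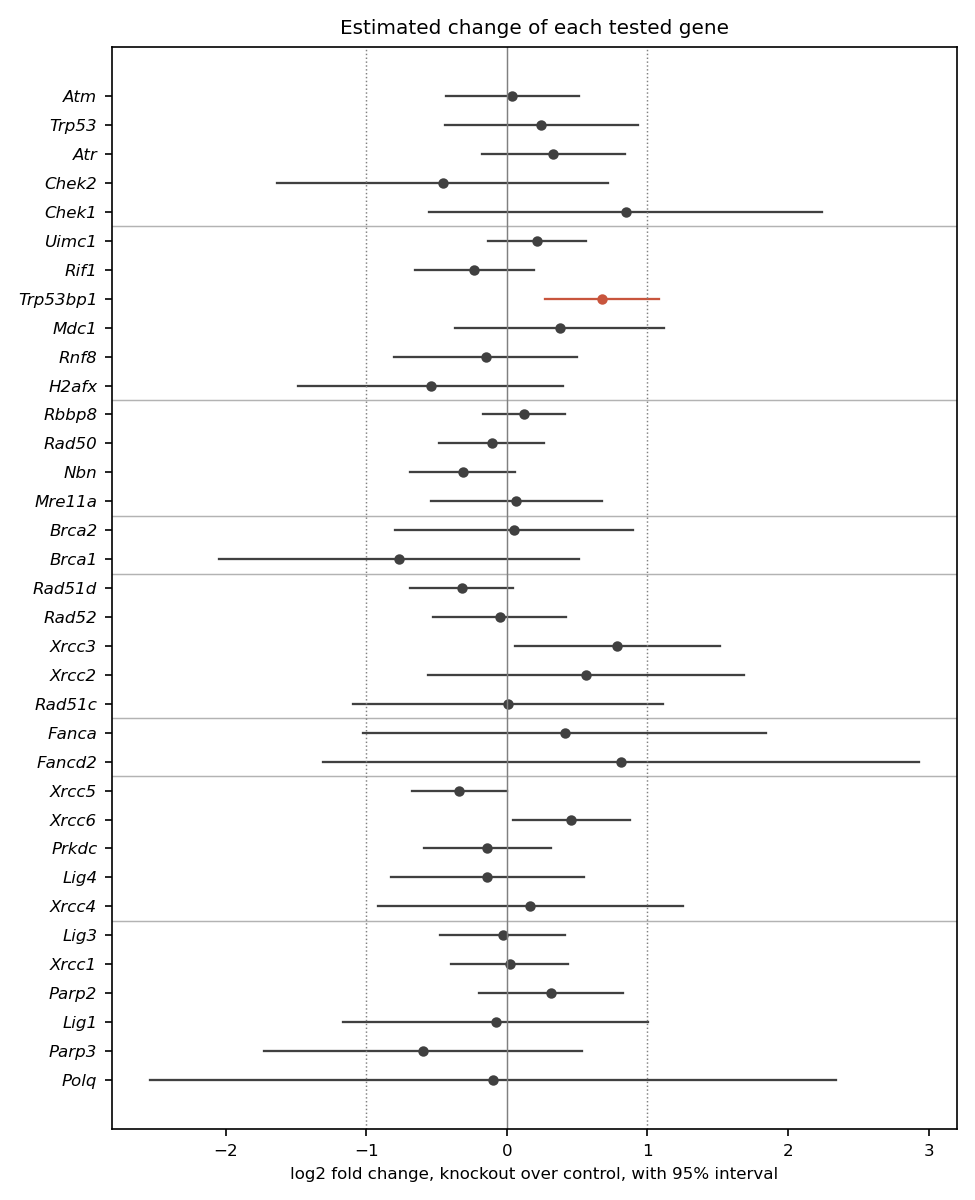
Estimated log2 fold change (knockout over control) of the 35 tested genes with its 95% interval from edgeR's quasi-likelihood fit, in blocks from damage signalling at the top to single-strand break repair at the bottom. Dotted lines mark a 2-fold change, and the gene in red, Trp53bp1, was called with the replicate block. Intervals are narrowest for genes such as Rbbp8 and widest for Polq and Fancd2.

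Per exonic length, the tested genes of the set spanned a wide range of low to middling levels. Xrcc5, which encodes the Ku80 subunit, had the highest level in control, at 3.21 RPKM ± 0.182 (SD, n = 3), above 78.9% of all genes tested. Rad51d followed at 2.99 RPKM ± 0.529, and the control libraries of these 2 genes overlapped. Nbn stood at 2.11 RPKM ± 0.172, Uimc1 at 1.85 RPKM ± 0.323, Xrcc6 at 1.36 RPKM ± 0.212 and H2afx at 1.29 RPKM ± 0.530. Of the 34 pairs of neighbours in this order, 29 overlapped in their control libraries. The 5 that did not were Rad51d above Nbn, Uimc1 above Xrcc6, Rad50 above Atm, Rbbp8 above Rad52 and Trp53bp1 above Rnf8. Rad50, at rank 8, lay above 51.15% of all genes tested. Bard1, Rad54l, Palb2 and Rad51b, which were not tested, are not in this order and had 0.00928, 0.0158, 0.0294 and 0.0313 RPKM in control. The 6 lowest of the tested genes act in replication-linked repair, its checkpoint or end joining by polymerase theta. Brca1 had 0.0979 RPKM ± 0.0525, Rad51c 0.0972 RPKM ± 0.0163, Chek1 0.0578 RPKM ± 0.0327, Fanca 0.0385 RPKM ± 0.0291, Polq 0.0279 RPKM ± 0.0351 and Fancd2 0.0231 RPKM ± 0.0316, the last above 0.359% of all genes tested. These values divide by all annotated exons, including stretches shared with a neighbouring gene in which no read was counted, so genes with such overlaps are understated.

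**Figure D2:**
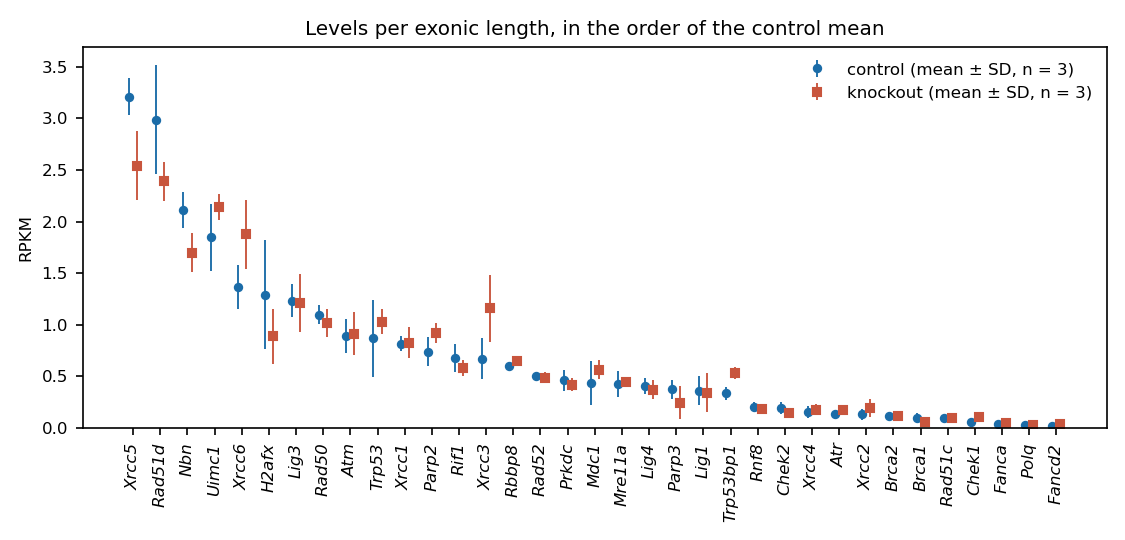
Mean RPKM ± SD (n = 3) of the 35 tested genes in control (blue circles) and knockout (red squares), in the order of the control mean. Xrcc5 and Rad51d lead at 3.21 and 2.99 RPKM in control, and the order ends with Polq and Fancd2 under 0.03 RPKM.

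**Figure D3:**
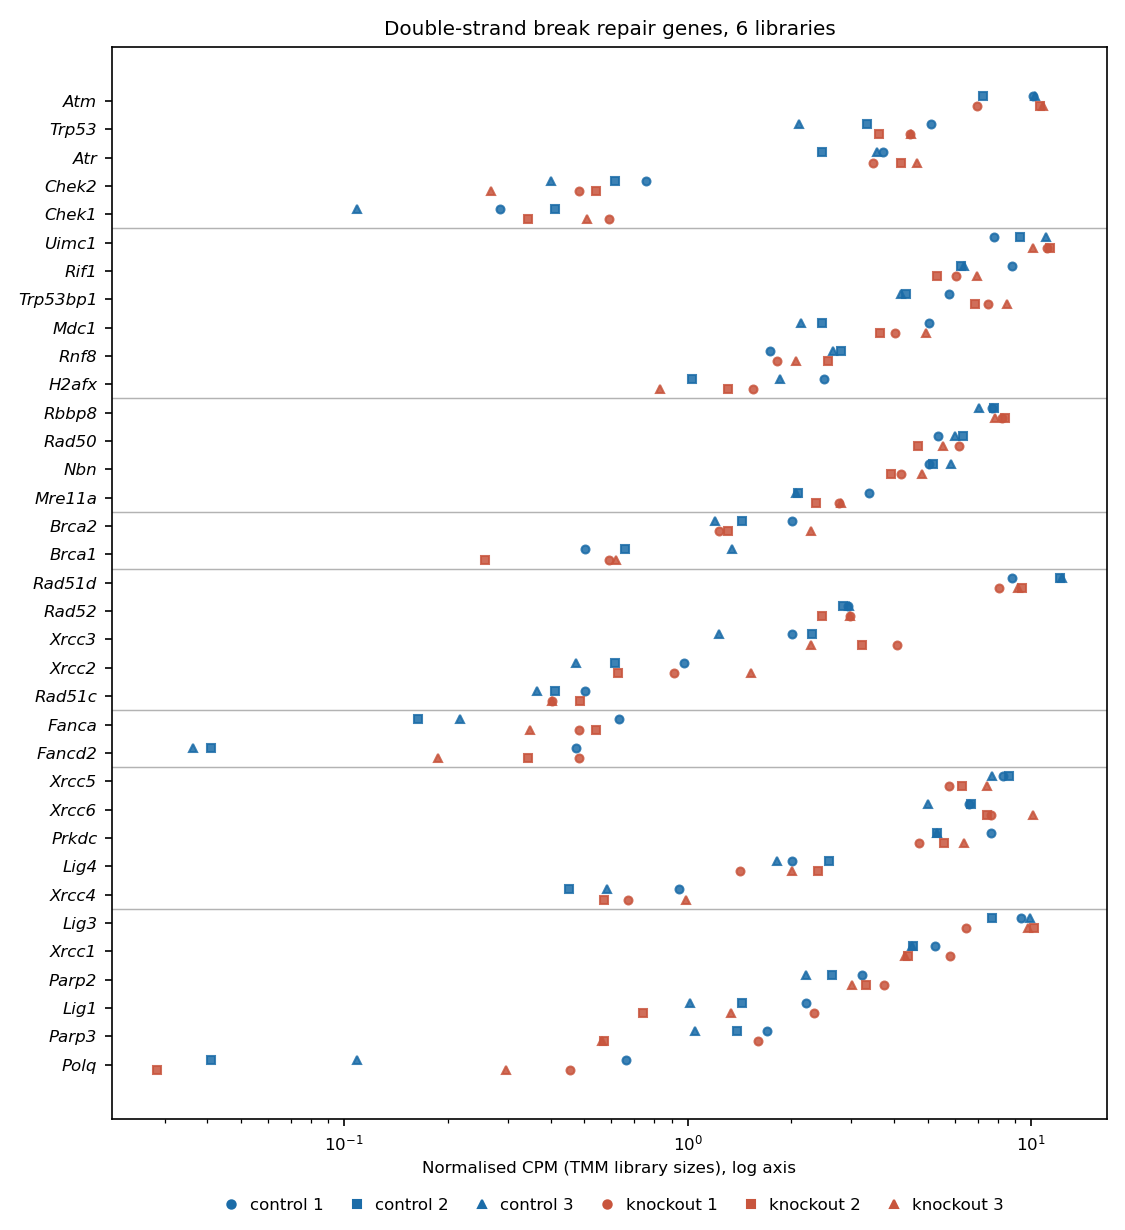
Normalised CPM (log axis) of each tested gene in each of the 6 libraries, in the same blocks by role as the plot of fold changes. Blue marks are control and red marks knockout, and the shape gives the replicate number. Most genes overlap between the groups. Trp53bp1, Xrcc6 and Rbbp8 lie higher in every knockout library than in any control library, and Xrcc5 and Nbn lower, with TMM scaling (both have a positive fold change with library totals).

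The apical kinases and checkpoint genes did not pass the test. Atm, the kinase activated at double-strand breaks, had 10.1, 7.23 and 10.3 CPM in the controls (replicates 1, 2 and 3, as throughout) against 6.97, 10.6 and 10.8 CPM in the knockouts. These values overlap, and the log2 fold change was 0.04 with an interval from -0.44 to 0.51. Atr, the kinase activated by single-stranded DNA, averaged 3.25 ± 0.683 CPM (SD, n = 3) in the controls against 4.10 ± 0.608 CPM in the knockouts. Trp53, which encodes the tumour suppressor p53, averaged 3.51 CPM ± 1.51 and 4.18 CPM ± 0.501, with a log2 fold change of 0.25 and an interval from -0.44 to 0.93. An annotated pseudogene, Trp53-ps, shares 94.96% identity with Trp53 over 1170 bases, so some of its reads could be placed on either. The 2 effector kinases were near the limit of counting. Chek1 had 3 to 10 counts per control library and 12 to 22 per knockout library, and Chek2 had 11 to 24 and 10 to 19. Their intervals, from -0.55 to 2.24 and from -1.63 to 0.72, included a change of 2-fold.

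Of the genes that mark chromatin around a break, Trp53bp1 stood apart in these libraries. It (ENSMUSG00000043909) encodes 53BP1, the ubiquitin and methyl-histone reader that shields broken ends. It had 5.76, 4.31 and 4.18 CPM in the controls against 7.48, 6.88 and 8.50 CPM in the knockouts. Every knockout library lay above every control library, and the knockout stood at 1.30, 1.59 and 2.03 times the control of the same number. The mean was 4.75 ± 0.879 CPM (SD, n = 3) in the controls against 7.62 ± 0.821 CPM in the knockouts, 1.60 times as high. The log2 fold change was 0.68 (SE 0.18), and edgeR's p was 0.00426 before and 0.120 after adjustment. The fit with the replicate block put the fold change at 0.69 (log2) and its edgeR-adjusted p at 0.0453. The labels do not give this pairing by number, which was taken from correlations within these data. An exact two-sided permutation test of log2 CPM returned 0.1, which is the lowest p possible with 3 libraries a group.

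The size of that difference depended on reads shared with a neighbour. The end of Trp53bp1 overlaps Tubgcp4, a gamma-tubulin complex gene on the opposite strand, and the reads of the overlap were counted to neither gene when strand was ignored. They came to 143, 96 and 83 in control and 156, 132 and 142 in knockout, beside 183, 105 and 115 counts for Trp53bp1 in control and 279, 241 and 317 in knockout. With forward-strand counts, which keep a part of the overlap, the log2 fold change of Trp53bp1 was 0.39 (adjusted p 0.404, edgeR), and with reverse-strand counts 0.45 (adjusted p 0.261, edgeR). Genes took 50.1% to 50.3% of their stranded counts from the forward column in every library, so strand was not marked and these reads cannot be divided between the 2 genes. Tubgcp4 itself averaged 2.67 ± 0.795 CPM (SD, n = 3) in the controls against 3.32 ± 0.316 CPM in the knockouts, with a log2 fold change of 0.31 and an edgeR-adjusted p of 0.611. With sex as a covariate, where the male control alone stands against the knockouts, Trp53bp1 had a log2 fold change of 0.40.

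The other 5 genes of this role gave no call. Rif1, which encodes the effector that 53BP1 recruits, had 8.82, 6.24 and 6.40 CPM in the controls against 6.06, 5.31 and 6.95 CPM in the knockouts. Its values overlap, and its log2 fold change was -0.23 with an interval from -0.65 to 0.19. Uimc1 encodes RAP80, which brings the BRCA1-A complex to ubiquitin chains, and averaged 9.39 ± 1.64 CPM (SD, n = 3) in the controls against 10.9 ± 0.628 CPM in the knockouts. An exon of Uimc1 overlaps Gm6344, a processed pseudogene, and holds sequence of 99.8% identity to the ribosomal protein gene Rpl29 over 441 bases, so its counts are uncertain. Mdc1, the reader of phosphorylated H2AX, averaged 3.22 CPM ± 1.59 and 4.19 CPM ± 0.672. Rnf8, the first ubiquitin ligase of the cascade, averaged 2.39 CPM ± 0.576 and 2.15 CPM ± 0.381. It shares 1544 bases with Gm28043, annotated on the same strand, so its counts are uncertain. H2afx, which encodes H2AX, averaged 1.79 CPM ± 0.733 and 1.23 CPM ± 0.368. Its transcript is over 90% identical to those of other histone H2A genes along a stretch of over 200 bases, so its counts are uncertain too. Atr, Brca2 and Rbbp8 also hold stretches of that length over 90% identical to other transcripts.

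A ratio of 2 genes within a library does not depend on how libraries are scaled. Both this measure and its genes were picked with the values in view. The ratio of Trp53bp1 to Rif1 was 0.654, 0.691 and 0.653 in the controls against 1.23, 1.30 and 1.22 in the knockouts, on average 1.88 times as high in knockout. Control replicate 1, the male control, lay among the other 2. A part of sex in this ratio was not tested. Of all 595 ratios of 2 tested genes of the set, 79 did not overlap between the groups (13.3%). With strand ignored, no other had as wide a gap between them as this ratio, which was picked for its values. Of the 34 ratios with Trp53bp1 in them, 20 did not overlap. With the counts of both strands summed, which keep the reads of the overlap with Tubgcp4, the ratio ran from 1.125 to 1.32 in control and from 1.77 to 2.005 in knockout, 1.58 times as high on average. With those counts its gap, from 1.32 to 1.77, was narrower than that of Xrcc6 to Xrcc5, from 1.05 to 1.77. Both summed ratios include overlap reads that may belong to the neighbouring gene, Tubgcp4 or Desi1. The exact two-sided permutation test on the ratio with strand ignored gave p = 0.1, the smallest possible.

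Genes of break sensing and end trimming gave no call. Rbbp8, which encodes CtIP, the partner of the MRE11 nuclease in starting resection, had 7.69, 7.80 and 7.05 CPM in the controls against 8.26, 8.39 and 7.86 CPM in the knockouts. The groups did not overlap, but the difference was small, with a log2 fold change of 0.12 and an interval from -0.17 to 0.41. Nbn, which encodes NBS1, had 5.04, 5.18 and 5.85 CPM in the controls against 4.18, 3.91 and 4.83 CPM in the knockouts. With TMM scaling it was lower in every knockout library (with library totals the log2 fold change was 0.10), with a log2 fold change of -0.31 (SE 0.16) and an edgeR-adjusted p of 0.388. Rad50, the ATPase of the same complex, averaged 5.89 ± 0.494 CPM (SD, n = 3) in the controls against 5.47 ± 0.745 CPM in the knockouts. Mre11a, the nuclease, averaged 2.51 CPM ± 0.743 and 2.64 CPM ± 0.235. The intervals of all 4 genes lay within a 2-fold change.

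The BRCA complexes were scarcely expressed. Brca2, a mediator of homologous recombination, had 2.02, 1.44 and 1.20 CPM in the controls against 1.23, 1.31 and 2.28 CPM in the knockouts. Brca1 had 16, 16 and 37 counts in control and 22, 9 and 23 in knockout, or 0.835 CPM ± 0.448 (SD, n = 3) and 0.488 CPM ± 0.200. Its log2 fold change was -0.77, and the interval from -2.05 to 0.52 includes a change in either direction at this depth. Bard1, the obligate partner of BRCA1, had 5 counts in control replicate 1, 5 in knockout replicate 1 and 0 in the other 4 libraries, where 3 counts, the limit that a count of 0 allows, correspond to at most 0.123 CPM. Palb2, which bridges BRCA1 and BRCA2, had 19 counts in the 3 controls together and 22 in the knockouts. These limits cover counting error only.

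Xrcc2, Xrcc3, Rad51b, Rad51c and Rad51d assist homologous recombination, and none of the 4 tested was called. Xrcc3 had 2.02, 2.30 and 1.24 CPM in the controls against 4.07, 3.23 and 2.28 CPM in the knockouts, which overlap by 1 library of each group. The mean was 1.85 ± 0.551 CPM (SD, n = 3) in the controls against 3.19 ± 0.898 CPM in the knockouts, with a log2 fold change of 0.79 (SE 0.32) and an edgeR-adjusted p of 0.268. Klc1, a kinesin light chain gene on the opposite strand that overlaps it, averaged 22.3 CPM ± 1.11 and 29.4 CPM ± 5.90, a log2 fold change of 0.40 with an edgeR p of 0.0371, or 0.267 once adjusted. The overlap of both genes held 6 to 29 reads per library that were counted to neither, beside 34 to 152 counts for Xrcc3. Rad51d, by contrast, averaged 11.1 CPM ± 1.97 in control and 8.88 CPM ± 0.710 in knockout, a log2 fold change of -0.32 (0.11 with library totals). Its male control, at 8.82 CPM, lay among the knockouts, while the 2 female controls were at 12.2 and 12.3 CPM. With sex as a covariate, where that male control alone stands against the knockouts, the log2 fold change was 0.01. With 1 male control, sex cannot be told apart from the level of that preparation. Xrcc2 averaged 0.688 CPM ± 0.260 and 1.02 CPM ± 0.461, and Rad51c 0.426 CPM ± 0.0715 and 0.430 CPM ± 0.0480.

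Rad52, an annealing factor, varied little, at 2.90 CPM ± 0.0596 in control and 2.80 CPM ± 0.301 in knockout (SD, n = 3). Rad54l, a motor protein of recombination, had 0 to 9 counts per library, 11 in the controls together and 11 in the knockouts. Rad51b had 6, 4 and 0 counts in control and 1, 0 and 0 in knockout. Without the filter on low counts, the edgeR test gave Rad51b an adjusted p of 0.489, and 0.949 to 0.967 for the other 3 unfiltered genes.

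Fancd2 and Fanca, the 2 Fanconi anaemia genes of the set, and Polq, the polymerase of alternative end joining, varied between libraries of the same group. Fancd2 had 0.472, 0.0411 and 0.0364 CPM in the controls against 0.482, 0.343 and 0.188 CPM in the knockouts. These were 15, 1 and 1 counts against 18, 12 and 7. Fanca had 0.630, 0.164 and 0.218 CPM in the controls against 0.482, 0.542 and 0.349 CPM in the knockouts. Polq had 0.661, 0.0411 and 0.109 CPM in the controls against 0.456, 0.0285 and 0.295 CPM in the knockouts. These were 21, 1 and 3 counts against 17, 1 and 11, so the lowest values of both genes rest on single counts. In control all 3 genes were highest in replicate 1. Mki67, a marker of dividing cells, had 4.54, 0.370 and 0.982 CPM in the controls against 2.63, 0.171 and 1.40 CPM in the knockouts, and the leukocyte marker Ptprc 29.9, 2.59 and 1.31 CPM and 12.1, 1.97 and 1.90 CPM. Over the whole lists, 18 proliferation markers summed to 29.8 to 53.9 CPM in control and 29.8 to 40.7 CPM in knockout, and 17 leukocyte markers to 28.9 to 205 CPM and 29.1 to 140 CPM, with the highest sum of each group in replicate 1 and no marker at 0 in all libraries. Of 15 proliferation markers tested, 6 had a positive and 9 a negative log2 fold change, among them Top2a at 0.94 and Mki67 at -0.50. Mcm2 (-0.68) was called lower with the block (edgeR-adjusted p 0.0473), where 5.99% of all genes were called. No proliferation marker was called without the block. The leukocyte markers did not go one way either. Of 14 tested, the 4 macrophage genes Adgre1, C1qa, C1qb and C1qc were called higher in knockout with the block, where 3.4% of all genes were called higher. Their log2 fold changes without the block were 2.15, 1.16, 0.92 and 1.37, and their edgeR-adjusted p with it 0.0188 to 0.0467. Cd68, Csf1r and Lyz2 (log2 fold changes 1.145, 0.63 and 0.32) were not called with it, and none of the list was called without it. The B cell markers Cd79a, Cd79b and Ms4a1 had log2 fold changes of -0.98, -0.83 and -0.95 and were not called, and Ptprc had -1.09, also not called. The part of dividing cells or leukocytes in the repair gene values was not tested. In bulk samples fewer cells of a type and less RNA per cell cannot be told apart.

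In non-homologous end joining, the 2 subunits of the Ku heterodimer, which binds broken ends as a ring, went opposite ways with TMM scaling, and neither was called. With library totals the log2 fold changes were 0.86 for Xrcc6 and 0.07 for Xrcc5, so that the sign of Xrcc5 rests on the scaling. Xrcc6 (ENSMUSG00000022471) encodes Ku70. It had 6.61, 6.70 and 5.02 CPM in the controls against 7.64, 7.45 and 10.1 CPM in the knockouts. All 3 knockouts were above all 3 controls, with a mean of 6.11 ± 0.947 CPM (SD, n = 3) in the controls against 8.40 ± 1.48 CPM in the knockouts, a log2 fold change of 0.46 (SE 0.18) and an edgeR-adjusted p of 0.260. Xrcc5 (ENSMUSG00000026187) encodes Ku80. It had 8.28, 8.63 and 7.71 CPM in the controls against 5.76, 6.28 and 7.43 CPM in the knockouts. All 3 knockouts were below all 3 controls, with a mean of 8.21 CPM ± 0.465 and 6.49 CPM ± 0.853, a log2 fold change of -0.34 (SE 0.15), an unadjusted p of 0.0502 and an adjusted p of 0.299. The block gave adjusted p of 0.186 for Xrcc6 and 0.232 for Xrcc5 in edgeR.

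The ratio of Xrcc6 to Xrcc5, also chosen after the values were seen, was 0.798, 0.776 and 0.651 in control and 1.33, 1.19 and 1.36 in knockout, 1.74 times as high on average. The groups did not overlap, and 7 of the 595 ratios with strand ignored, this one included, had a gap at least as wide. Xrcc6 overlaps Desi1 on the opposite strand, and 36 to 75 reads of the overlap per control library and 96 to 128 per knockout library were counted to neither. Summing both strands gives all of these reads to Xrcc6, although they cannot be divided between it and Desi1. With both strands summed, the ratio ran from 0.948 to 1.05 in control and from 1.77 to 1.79 in knockout. Desi1 averaged 16.4 ± 3.16 CPM (SD, n = 3) in the controls against 13.0 ± 1.81 CPM in the knockouts, a log2 fold change of -0.33 with an edgeR-adjusted p of 0.394. The exact two-sided permutation test on the ratio gave p = 0.1, the smallest possible, and 0.229 after Benjamini-Hochberg adjustment over 16 ratios of partner genes.

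**Figure D4:**
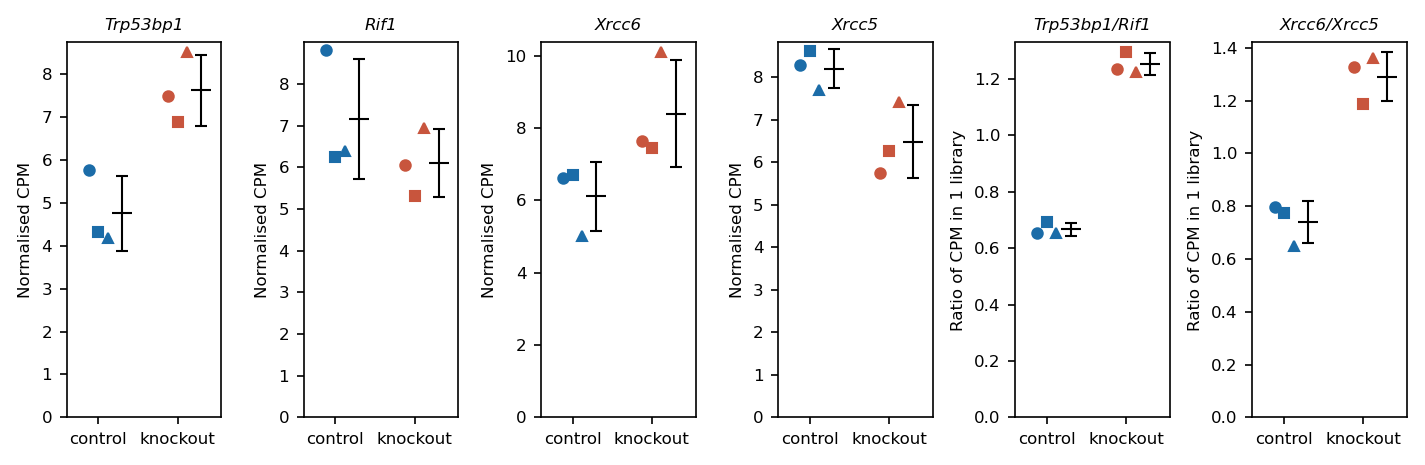
Normalised CPM of Trp53bp1, Rif1, Xrcc6 and Xrcc5 in each library and, in the last 2 panels, the ratios of Trp53bp1 to Rif1 and of Xrcc6 to Xrcc5 within a library. Circles, squares and triangles are replicates 1, 2 and 3, and bars are the mean ± SD (n = 3) of control (blue) and knockout (red). The ratios lie at 0.654, 0.691 and 0.653 against 1.23, 1.30 and 1.22, and at 0.798, 0.776 and 0.651 against 1.33, 1.19 and 1.36.

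The other end-joining genes overlapped between the groups. Prkdc, the catalytic subunit of the DNA-dependent protein kinase, averaged 6.10 ± 1.35 CPM (SD, n = 3) in the controls against 5.56 ± 0.833 CPM in the knockouts. Lig4, the ligase of this pathway, averaged 2.14 CPM ± 0.400 and 1.94 CPM ± 0.492, and Xrcc4, its scaffold, 0.659 CPM ± 0.256 and 0.744 CPM ± 0.220. The intervals of Prkdc and Lig4 lay within a 2-fold change, and that of Xrcc4, from -0.92 to 1.25, did not.

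Genes shared with single-strand break repair gave no call. Lig3 and Xrcc1, whose products form a ligase and scaffold pair, averaged 9.0 CPM ± 1.15 (SD, n = 3) and 4.76 CPM ± 0.431 in control and 8.84 CPM ± 2.05 and 4.83 CPM ± 0.852 in knockout. Their log2 fold changes were -0.03 and 0.02, with intervals from -0.47 to 0.42 and from -0.39 to 0.44. Lig3 shares 1826 bases with Rffl, on the opposite strand. Parp2, a poly(ADP-ribose) polymerase, averaged 2.69 CPM ± 0.5002 and 3.35 CPM ± 0.362. Parp3, a related enzyme, had 1.70, 1.40 and 1.05 CPM in the controls against 1.61, 0.571 and 0.563 CPM in the knockouts, a log2 fold change of -0.60 with an interval from -1.73 to 0.54. Lig1, the replicative ligase, averaged 1.554 CPM ± 0.602 and 1.47 CPM ± 0.803.

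Of 90 further genes of 5 lists, 73 were tested and 0 were called, with or without the replicate block, and at an unadjusted p under 0.05 there were 4 higher and 3 lower (9.59%, against 16.7% of all genes). Their median log2 fold change was 0.04. By list, the number tested and the median were 13 and -0.08 for checkpoint factors, 14 and 0.02 for chromatin factors, 21 and 0.06 for resection and recombination, 13 and 0.03 for the Fanconi anaemia pathway and 12 and 0.23 for end joining and end processing. The groups did not overlap in 20.55% of the 73 (10 higher, 5 lower), against 22.9% of all genes tested. For end joining and end processing the share was 41.7% (4 higher, 1 lower). The lists do not hold every repair gene. Eme2, a repair gene in none of the 5, was called higher in knockout (log2 fold change 1.83, edgeR-adjusted p 0.0188). Among 13 tested targets of p53, 1 was called, Zmat3, where 0.945% of all genes were, and 4 with the block, all higher, where 3.4% of all genes were called higher. The log2 fold change was positive for 10 of the 13. It was negative for 3, Mdm2 (-0.29), Ccng1 (-0.12) and Fas (-0.06), and near 0 for Btg2 (0.01) and Aen (0.02). Zmat3, an RNA-binding protein gene, went from 5.47 ± 1.45 to 12.1 ± 1.46 CPM (SD, n = 3), with an edgeR-adjusted p of 0.0412.

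The starts of these genes were compared for sequence elements, since many genes of replication and repair are known to carry sites for the E2F cell cycle factors. RefSeq windows of 250 bases before to 50 after a start (build GRCm38.p6) were found for 30 of the 39 genes, 36 windows in all. The E2F site TTTCCCGC was in 6 of the 36 (16.7%) and in 1.07% of all 32851 windows of the table. The E2F site TTTGGCGC was in 0 of the 36 and 0.514% of all, the CHR element TTTGAA in 5 (13.9%) and 17.9%, the palindromic NRF1 site in 1 (2.78%) and 0.971%, and CCAAT in 19 (52.8%) and 37.4%. All were searched on both strands, and none contains another. The median GC content was 58.2% for the 36 windows and 52.7% for all. The 6 windows with TTTCCCGC were those of Chek2, Mdc1, Brca2, Bard1, Rad51c and Xrcc6, and the 5 of these genes that were tested had log2 fold changes from -0.46 to 0.46. A match describes the letters and is not evidence of binding.

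The matches and their flanks are shown to compare how each site sits at its gene, in capitals within 40 bases, 5′ to 3′ on the strand of the gene (GCGGGAAA is the same site read on the other strand). The Chek2 stretch is chr5:110839815-110839854 (+), that of Mdc1 chr17:35841466-35841505 (+), that of Brca2 chr5:150522437-150522476 (+), that of Bard1 chr1:71103158-71103197 (-) and that of Rad51c chr11:87404936-87404975 (-), all in GRCm38.p6. The first base of the site lies 152, 16, 168, 209 and 5 bases before the start.
Chek2: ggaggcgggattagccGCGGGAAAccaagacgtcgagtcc
Mdc1: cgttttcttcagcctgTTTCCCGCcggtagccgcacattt
Brca2: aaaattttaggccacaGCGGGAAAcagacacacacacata
Bard1: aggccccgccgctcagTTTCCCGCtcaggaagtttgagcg
Rad51c: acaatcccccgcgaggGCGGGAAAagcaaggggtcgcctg

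The 250 bases before the start are shown for the 2 Ku genes, whose values went apart with TMM scaling, and for Trp53bp1. Any searched element is in capitals. A part of these elements in the values was not tested. Xrcc6 (chr15:82016119-82016368, +) has a GC content of 65.2% and the E2F site 46 bases before the start. Its full window of 300 bases also has a CCAAT match, which does not lie within the 250 bases shown, so both Ku windows hold CCAAT. Xrcc5 (chr1:72307171-72307420, +) has a GC content of 44.8% and 1 CCAAT box on the other strand, 169 bases before the start. Trp53bp1 (chr2:121271408-121271657, -) has a GC content of 54.4% and holds none of the letters searched in these 250 bases.
Xrcc6: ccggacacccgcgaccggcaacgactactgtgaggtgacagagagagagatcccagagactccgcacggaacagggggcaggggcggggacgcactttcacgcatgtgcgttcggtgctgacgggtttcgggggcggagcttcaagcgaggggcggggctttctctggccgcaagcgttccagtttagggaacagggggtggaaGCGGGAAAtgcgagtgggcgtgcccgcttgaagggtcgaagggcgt
Xrcc5: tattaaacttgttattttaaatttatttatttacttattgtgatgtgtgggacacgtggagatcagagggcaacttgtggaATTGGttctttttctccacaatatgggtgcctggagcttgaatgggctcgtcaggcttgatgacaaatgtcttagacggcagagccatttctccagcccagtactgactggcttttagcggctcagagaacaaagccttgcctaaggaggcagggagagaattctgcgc
Trp53bp1: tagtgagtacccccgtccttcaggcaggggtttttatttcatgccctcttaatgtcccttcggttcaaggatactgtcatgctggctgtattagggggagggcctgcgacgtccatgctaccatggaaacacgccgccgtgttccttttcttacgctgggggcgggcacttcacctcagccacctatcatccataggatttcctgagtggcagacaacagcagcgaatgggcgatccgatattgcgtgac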

How the data were processed

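The deposited values are raw counts per gene in 6 tables, 1 per library. Per the submitters' processing notes the authors used STAR 2.7.10a and build GRCm39 (mm39). The annotation, and whether 1 count is a read or a read pair, are not given in the sources used here. The column that ignores strand was used, and the 4 rows of reads outside genes (unmapped, multimapping, noFeature, ambiguous) stayed out of library sizes and tests. They held 36.9% to 45.7% of all reads per library. Symbols, exonic lengths and overlaps came from GENCODE M21 (GRCm38), which held 94.1% of the identifiers, so lengths and overlaps may differ from those of the build used for counting.

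Genes passing filterByExpr were tested with edgeR 4.0.16 in R 4.3.3 (TMM factors, robust quasi-likelihood F test, Benjamini-Hochberg adjustment over all tested genes, called at an adjusted p under 0.05). The procedure was tested on simulated data. Those counts were drawn independently, without the sex imbalance or replicate correlation of these libraries, so that test does not cover either. CPM values use TMM library sizes, log2 CPM a prior count of 2, and RPKM is CPM per kilobase of annotated exon. The standard error is the log2 fold change divided by the square root of F, and the 95% interval uses the t distribution with the test's degrees of freedom. Similar copies were sought among annotated transcripts at 90% identity over 200 bases. DESeq2 1.42.0 and limma 3.58.1 served as alternatives.

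The members, lists, role groups and alternatives were chosen with earlier results of these data known. Named are Trip12 and all 39 members by role, with every library given for those at an unadjusted p under 0.05 or called with the block and for the ends of the order of levels. Rif1, Xrcc5, Nbn and the other genes given by library were added after their values were seen, as were Klc1, Desi1, Tubgcp4 (neighbours), Mki67 and Ptprc. The numbers 1 to 3 were taken to pair libraries because the deviations from group means correlated at 0.63, 0.455 and 0.285 in the same-numbered pairs, all over 0.1. Of the differently numbered pairs, control 3 with knockout 2 was also over it, at 0.21. The labels call the numbers biological replicates and do not say that a number marks a shared litter, batch or day, so the pairing rests on these correlations. They come from the same libraries as the tests, so the blocked fit is not independent support for a call. Counts of both strands summed were added as an alternative after seeing the data.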

Additional observations from a re-analysis of the deposited data

How the results depend on the processing

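No repair gene was called with edgeR's test as described, and 15 of the 19 alternatives also called 0. The number was 1 with the replicate block, 1 without a filter on low counts, 0 to 1 over the fits that each left out 1 library, all 3 times Trp53bp1, and 3 with library totals (Trp53bp1, Xrcc6 and Uimc1). The call of Trp53bp1 among those fits came without control replicate 1 (log2 fold change 0.82, adjusted p 0.0462). With library totals the median over all genes was 0.41 higher on the log2 scale, and that of the repair genes went from 0.02 to 0.425, so directions of small changes rest on the scaling. The number of all genes called was 124, and 785 with the block, 1519 with library totals, 850 without a filter, 210 where every library had 10 counts or more, 593 with DESeq2, 21 with sex as a covariate and 20 to 461 without 1 library. Trip12 was not called with library totals (log2 fold change -0.49) or sex (-1.05), and ranged from -0.98 to -0.82 without 1 library. The fit with sex rests on the male control alone against the knockouts, for Trip12 and for all other genes. Among the 6 fits without 1 library, Trip12 was called only in that without control replicate 1, and had adjusted p of 0.0676 to 0.14 in the other 5.

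None of the 35 was called in any fit in which it changed sign. Over the 648 values under alternatives, 68 changed sign, in 23 genes. With library totals these were Xrcc5 0.072, Nbn 0.10, Rad51d 0.11, Rif1 0.16, Polq 0.21, Prkdc 0.24, Lig4 0.27, Rnf8 0.29, Lig1 0.30, Rad50 0.32, Rad52 0.36 and Lig3 0.37. With sex, where the male control alone stands against the knockouts, they were Atm -0.10 (-0.0955), Xrcc1 -0.12, Rad51c -0.23, Mdc1 -0.26, Trp53 -0.29, Brca2 -0.32, Xrcc4 -0.34, Mre11a -0.35, Fanca -0.46, Fancd2 -0.48, Rad51d 0.0093, Rad50 0.030 and Rnf8 0.31. With forward-strand counts they were Brca2 -0.015, Atm -0.033, Mre11a -0.037, Parp2 -0.062, Xrcc1 -0.087, Rad50 0.00039, Rad52 0.034, Prkdc 0.039, Lig3 0.062, Lig1 0.25 and Rnf8 0.27. Xrcc4 was -0.18 with reverse-strand counts and Polq 0.13 with the replicate block. Rad51c was -0.010 with RLE factors, -0.011 with limma-voom and -0.011 (-0.01087) with DESeq2, which gave Xrcc1 -0.00018. Without 1 library the ranges of genes that changed sign were -0.11 to 0.22 for Atm, -0.016 to 0.60 for Trp53, -0.29 to 0.26 for Brca2, -0.052 to 0.32 for Mre11a, -0.091 to 0.13 for Rad51c, -0.098 to 0.033 for Rad52, -0.13 to 0.098 for Xrcc1, -0.093 to 0.50 for Xrcc4, -0.58 to 0.24 for Lig1, -0.15 to 0.15 for Lig3, -0.32 to 0.043 for Lig4, -0.25 to 0.037 for Prkdc and -0.75 to 1.70 for Polq. The causes were not tested. The block changed no other call of a repair gene.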

Other observations

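The ratios of 16 pairs of genes whose products work together were compared within libraries. The pairs were listed after the values were seen and share genes, so they are not independent. In 7 of the 16 the groups did not overlap, and each of the 7 had p = 0.1 in an exact two-sided permutation test (0.229 after Benjamini-Hochberg adjustment over the 16). Over all 595 ratios of tested repair genes the share was 13.3%. Because the 16 were picked with the values in view, their share cannot be compared with it. Besides Trp53bp1 to Rif1 and Xrcc6 to Xrcc5, these were Rbbp8 to Nbn, Atr to Atm, Xrcc3 to Rad51c, Mdc1 to H2afx and Trp53bp1 to Brca1. All were higher in knockout as written, and the shared direction only reflects which gene of a pair was put first. The ratio of Rbbp8, which starts end resection, to Nbn averaged 1.41 ± 0.18 (SD, n = 3) in control and 1.92 ± 0.264 in knockout. The ratio of Atr to Atm, the 2 apical kinases, was 0.368, 0.341 and 0.348 in control and 0.496, 0.3935 and 0.431 in knockout. In the other 9 the groups overlapped, among them Mre11a to Rad50, at 0.435 ± 0.168 in control and 0.485 ± 0.0326 in knockout, Nbn to Rad50, at 0.912 ± 0.0828 and 0.794 ± 0.102, and Lig3 to Xrcc1, at 1.90 ± 0.273 and 1.91 ± 0.688.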
